A study of Homo sapiens with 6 samples.

Results

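Nuclear genes that encode the factors for transcription of mitochondrial DNA and for the turnover of its RNA were examined in the established pancreatic cancer line MIA PaCa-2, which is human. The set was chosen by gene symbol and holds 10 of the 35993 genes measured, TFAM, TFB1M, TFB2M, POLRMT, POLG, LRPPRC, SLIRP, MTPAP, PNPT1 and SUPV3L1, and all 10 passed the filter on low counts that left 14728 genes for testing. They were set beside the 37 genes of mitochondrial DNA itself. There were 3 libraries from untreated cells and 3 from cells given 4 µM rhCYGB for 48 h, where rhCYGB is the recombinant human form of cytoglobin, a haem protein, that the authors made in bacteria. Both groups were the same line in medium with 1% FBS, and a vehicle for the untreated cells is not given in the labels.

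Human mitochondrial DNA is a small circle that POLRMT, the mitochondrial RNA polymerase, reads from both strands as long precursors that carry many genes. TFAM bends the promoter DNA and TFB2M melts it to start transcription, and the tRNAs that punctuate the precursors are cut out to free the mRNAs and rRNAs. The mRNAs then receive short poly(A) tails from MTPAP, are held by the complex of LRPPRC and SLIRP, and are degraded by PNPT1 with the helicase SUPV3L1.

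The 10 genes did not move together. Transcripts of TFAM, TFB2M, TFB1M, POLG and SLIRP were lower in the rhCYGB libraries, by 17.3% to 34.1%, while those of POLRMT, LRPPRC, MTPAP, PNPT1 and SUPV3L1 were higher, by 8.65% to 149%. The rises of PNPT1 and LRPPRC, the smallest of these, depended on how libraries were scaled, as given with their values. Of the genes on mitochondrial DNA, 10 of 13 mRNAs were lower and both rRNAs were higher. All these counts are at adjusted p under 0.05 by edgeR, where 38.6% of all genes tested were lower and 39.0% higher.

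Some of the promoters share a sequence element. NRF1 and the ETS factor GABP are known regulators of nuclear genes for mitochondria, so 300 bases around each start site were read from RefSeq on GRCh38.p14 for all 10 genes, with 2 start sites for SLIRP and 11 windows in all. The NRF1 core GCGCANGCG, searched on both strands, was in the windows of 5 genes, TFAM, TFB2M, TFB1M, POLRMT and MTPAP. It was in 7.52% of 35116 windows in RefSeq and in 12.6% of the 15502 windows of genes tested here. The 5 windows are printed on the strand of the gene because they put genes that fell and genes that rose beside each other, and capitals mark the NRF1 core.
TFAM (chr10:58385160-58385459, plus strand): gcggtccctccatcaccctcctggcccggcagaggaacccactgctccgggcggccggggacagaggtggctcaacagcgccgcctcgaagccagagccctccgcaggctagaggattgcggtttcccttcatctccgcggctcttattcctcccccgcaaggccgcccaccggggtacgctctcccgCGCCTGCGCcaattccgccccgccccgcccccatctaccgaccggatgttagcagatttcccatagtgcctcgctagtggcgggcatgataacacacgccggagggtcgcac
TFB2M (chr1:246566212-246566511, minus strand): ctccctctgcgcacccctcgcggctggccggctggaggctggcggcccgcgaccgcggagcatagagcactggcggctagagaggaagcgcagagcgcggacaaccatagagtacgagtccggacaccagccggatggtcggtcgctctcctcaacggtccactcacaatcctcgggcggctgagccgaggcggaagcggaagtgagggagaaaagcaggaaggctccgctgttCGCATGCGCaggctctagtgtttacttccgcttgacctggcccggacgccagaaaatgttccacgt
TFB1M (chr6:155314435-155314734, minus strand): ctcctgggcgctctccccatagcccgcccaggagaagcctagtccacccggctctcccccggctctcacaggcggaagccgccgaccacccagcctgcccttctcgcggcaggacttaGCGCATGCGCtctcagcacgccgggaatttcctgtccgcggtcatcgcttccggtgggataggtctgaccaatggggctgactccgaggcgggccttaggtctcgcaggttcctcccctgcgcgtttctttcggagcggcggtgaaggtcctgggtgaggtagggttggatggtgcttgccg
POLRMT (chr19:633488-633787, minus strand): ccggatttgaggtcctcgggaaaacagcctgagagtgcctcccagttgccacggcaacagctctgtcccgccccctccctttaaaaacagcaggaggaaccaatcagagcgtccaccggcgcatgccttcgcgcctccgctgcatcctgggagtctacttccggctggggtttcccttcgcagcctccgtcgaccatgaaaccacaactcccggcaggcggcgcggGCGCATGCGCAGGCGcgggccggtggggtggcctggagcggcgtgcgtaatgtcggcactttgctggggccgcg
MTPAP (chr10:30349229-30349528, minus strand): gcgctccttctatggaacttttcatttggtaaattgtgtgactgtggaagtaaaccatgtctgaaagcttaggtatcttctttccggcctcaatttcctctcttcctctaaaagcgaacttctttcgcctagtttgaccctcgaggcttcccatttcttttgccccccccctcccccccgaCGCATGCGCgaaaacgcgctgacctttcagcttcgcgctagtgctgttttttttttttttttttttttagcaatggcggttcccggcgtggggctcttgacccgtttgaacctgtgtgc

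The core began 62 bases before the start of TFAM, 16 before TFB2M, 69 before MTPAP, 132 before TFB1M and 24 before POLRMT. TFB1M held 2 overlapping matches, since its stretch reads the same on both strands, and POLRMT held 3. The ETS core CCGGAAG was in the windows of TFB1M, SLIRP and POLRMT, against 16.8% of those of tested genes. The YY1 core AAGATGGC was in both windows of SLIRP only, against 4.69%, and a C/EBP-ATF core, TGATGCAA, was in none of the 11 and in 0.510% of those of tested genes. None of the 4 elements was found in the windows of LRPPRC, PNPT1, SUPV3L1 and POLG. The NRF1 core was thus shared by 3 genes that were lower and 2 that were higher after rhCYGB, and a match in a window is not a measured binding site.

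Read counts on genes were 34838399 to 42271299 per library, and 3 counts were worth 0.0669 to 0.0901 CPM (counts scaled to a common library size with TMM factors). Counting error alone did not cover the differences between replicates, with a chi-square of 4.67 to 6.62 per degree of freedom over the 6 pairs of libraries within groups. Nothing in the labels says that they came from separate cultures, so the p-values measure the spread between these libraries, which may be technical. Of the markers of the line, KRT8 was at 2084 CPM on average in untreated cells and 1190 after rhCYGB, KRT18 at 1648 and 1693, and VIM at 8010 and 11740, so that KRT8 fell by 0.81 and VIM rose by 0.55 on the log2 scale (adjusted p = 1.47e-11 and 1.12e-11 by edgeR). Their part in other values was not tested, and CDH1 and EPCAM held 0 to 2 counts in every library. Of the markers of other cells, PRSS1, CPA1, PTPRC and PECAM1 held 0 counts, COL1A1 at most 10, PDGFRB at most 5, and ACTA2 lay near 5.60 and 5.30 CPM in the 2 groups. In RNA from whole cultures, less RNA per cell and fewer cells with the RNA cannot be told apart.

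Each gene was called by edgeR's quasi-likelihood test where its p, adjusted by the Benjamini-Hochberg method over the whole table, was under 0.05. By this call 5 of the 10 genes were lower and 5 were higher. Over all 14728 genes, 38.6% were called lower and 39.0% higher, so calls were common throughout and the 10 of 10 called are to be read beside those shares. At a change of 2-fold or more none of the 10 was called lower, beside 14.7% of all genes, and 2 were called higher, beside 12.4%. In CPM the 3 values of one group lay wholly below those of the other for all 10, with rhCYGB lower for 5 and higher for 5. Of all genes, 39.7% and 39.8% did so. In FPKM, which is scaled to transcript length and depth, the groups of PNPT1 and of LRPPRC overlapped. The median log2 change was -0.08 over the 10 and 0.00 over all genes. Scaling by total counts alone moved the median of all genes to -0.17, and 5 of the 10 were then called lower and 3 higher, beside 45.7% and 31.8% of all genes under that scaling.

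**Figure D1:**
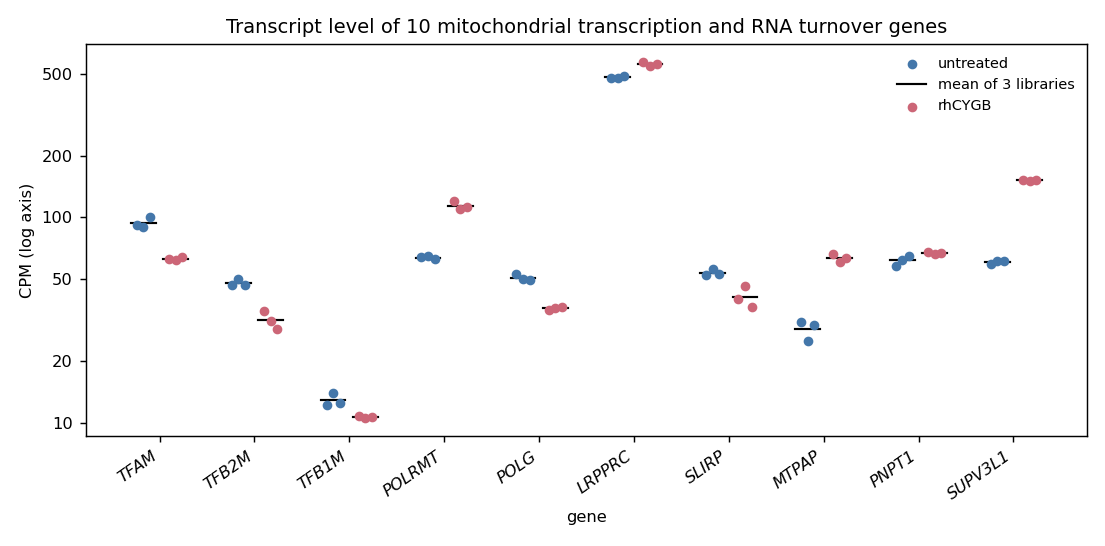
Level of each of the 10 genes in every library, in CPM on a log axis, with untreated libraries in blue, rhCYGB libraries in red and a line at each mean of 3. The groups lie apart for all 10 genes, as they do for 39.7% of all genes with rhCYGB lower and 39.8% with it higher. SUPV3L1 shows the largest fold and PNPT1 the smallest, with its groups at 58.2 to 64.9 and 66.6 to 67.6 CPM. In FPKM the groups of PNPT1 and LRPPRC overlap.

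The genes for starting transcription went in both directions. TFAM, which also packs mitochondrial DNA into nucleoids, was at 92.1, 90.0 and 100.5 CPM in untreated libraries 1 to 3 and at 62.5, 62.1 and 64.2 CPM in rhCYGB libraries 1 to 3. The highest rhCYGB library was thus well below the lowest untreated one, and TFAM fell by 0.58 on the log2 scale (SE 0.05, adjusted p = 2.28e-08 by edgeR). TFB2M, the factor that opens the promoter, was at 47.2, 50.4 and 46.8 CPM without rhCYGB and at 35.2, 31.2 and 28.8 CPM with it. The rhCYGB libraries were more spread out than the untreated ones but did not reach them, and TFB2M fell by 0.60 (SE 0.07, adjusted p = 7.21e-07 by edgeR).

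POLRMT, the polymerase that these factors recruit, was at 64.3, 64.6 and 62.5 CPM in the untreated libraries and at 119.7, 109.9 and 112.5 CPM in the rhCYGB libraries. Each rhCYGB value was over 1.5 times each untreated one, and POLRMT rose 1.79-fold (log2 change 0.84, SE 0.04, adjusted p = 9.49e-11 by edgeR). TFB1M, a paralog of TFB2M that methylates the small mitochondrial rRNA, was at 12.2, 14.0 and 12.5 CPM in untreated cells and 10.9, 10.6 and 10.7 after rhCYGB. Its groups lay apart by 1.34 CPM, and it fell by 0.27 on the log2 scale (SE 0.09, adjusted p = 0.00951 by edgeR). Without untreated replicate 2, the highest of the 6 values, TFB1M had a log2 change of -0.21 and was not called (adjusted p = 0.0642 by edgeR).

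POLG, the catalytic subunit of the polymerase that copies mitochondrial DNA, was at 53.0, 50.1 and 49.8 CPM in untreated cells. After rhCYGB it was at 35.6, 36.4 and 36.6 CPM, values within 0.980 CPM of each other and all lower. The log2 change was -0.49 (SE 0.05, adjusted p = 1.92e-07 by edgeR). POLG overlaps FANCI, a DNA repair gene, over 955 bases, and FANCI was at 64.2 ± 1.16 CPM (SD, n = 3) untreated and 26.2 ± 1.92 with rhCYGB. TFB1M overlaps TIAM2 over 27853 bases, and TIAM2 went from 0.680 to 4.60 CPM. The kit keeps strand but strand use in counting is not given in the sources used here, so the part of these overlaps in the values of POLG and TFB1M was not tested.

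MTPAP, the poly(A) polymerase of mitochondria, was at 30.9, 25.1 and 30.0 CPM without rhCYGB and at 66.7, 60.9 and 63.6 CPM with it, a rise of 2.23-fold (log2 change 1.16, SE 0.07, adjusted p = 4.63e-10 by edgeR). Its groups were separated by more than the range of either. SUPV3L1, the RNA helicase of the degrading complex, had the largest change of the 10, from 59.4, 61.6 and 61.6 CPM to 152.2, 149.7 and 152.3 CPM. Replicates of SUPV3L1 differed by at most 2.60 CPM, and it rose 2.49-fold (log2 change 1.31, SE 0.04, adjusted p = 1.39e-13 by edgeR).

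PNPT1, the ribonuclease that works with SUPV3L1, was at 58.2, 62.3 and 64.9 CPM in untreated cells and at 67.6, 66.6 and 67.4 CPM after rhCYGB. The groups were 1.65 CPM apart, less than the 6.76 CPM between the lowest and the highest untreated library. The log2 change was 0.12 (SE 0.05, adjusted p = 0.0327 by edgeR), and it turned to -0.02 with upper-quartile factors, -0.05 with total counts and -0.04 in both fits to FPKM, none of them called. The call held in 4 of 17 alternative settings and was lost on leaving out any 1 library other than untreated replicate 3, with adjusted p-values of 0.0536 to 0.173.

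LRPPRC, the large RNA-binding protein that stabilises mitochondrial mRNAs and promotes their tailing, had the most counts behind its values. It was at 477.1, 477.1 and 484.8 CPM untreated and at 571.3, 542.4 and 558.6 CPM with rhCYGB, with no overlap, and its log2 change was 0.22 (SE 0.03, adjusted p = 3.25e-05 by edgeR). Under total counts the change was 0.05 and not called (adjusted p = 0.143 by edgeR), and it was also not called with upper-quartile factors or in both fits to FPKM. SLIRP, the small partner of LRPPRC, was at 52.5, 56.3 and 53.0 CPM untreated and at 40.1, 46.5 and 36.7 CPM with rhCYGB. All 3 rhCYGB libraries were lower, though unevenly, and SLIRP fell by 0.39 (SE 0.07, adjusted p = 1.07e-04 by edgeR).

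**Figure D2:**
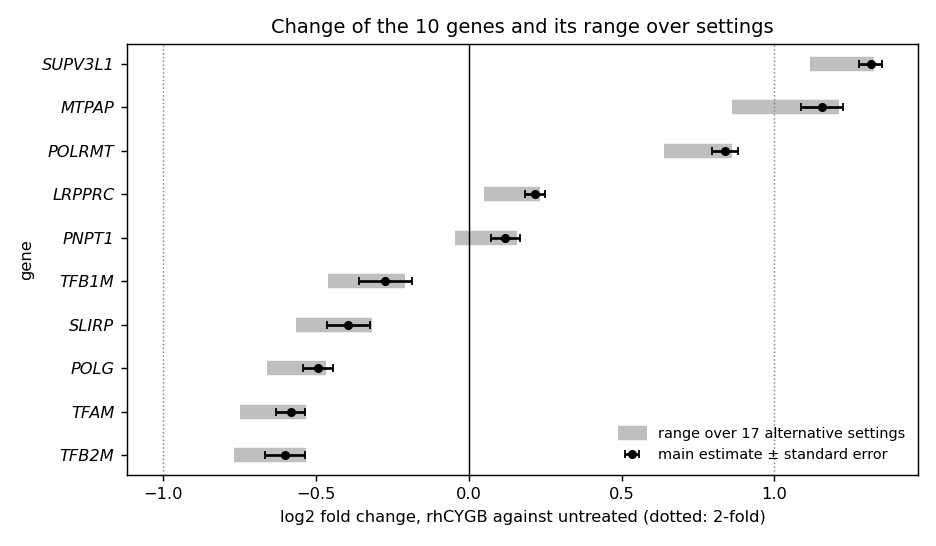
Log2 fold change of each gene, rhCYGB against untreated, as a point with its standard error, and the range of the change over 17 alternative settings as a grey bar. PNPT1 is the 1 gene whose bar crosses 0, from -0.05 to 0.16, and SUPV3L1 stays above 2-fold throughout, from 1.12 to 1.33.

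TFAM, TFB2M, POLG, SLIRP, POLRMT, MTPAP and SUPV3L1 were called, each in 1 direction, in all 17 alternative settings. Over those settings TFAM ranged from -0.75 to -0.53 on the log2 scale, TFB2M from -0.77 to -0.53, POLG from -0.66 to -0.47 and SLIRP from -0.56 to -0.32. POLRMT ranged from 0.64 to 0.86 and MTPAP from 0.86 to 1.21.

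Levels were compared between genes as FPKM, which is per transcript length. In untreated cells SLIRP was highest at 133 ± 4.92 FPKM (SD, n = 3), followed by LRPPRC at 67.8 ± 1.15, TFB2M at 25.2 ± 0.978 and SUPV3L1 at 22.8 ± 0.566. TFAM, POLRMT, PNPT1 and POLG followed at 17.4, 15.8, 12.7 and 10.7 FPKM, and MTPAP and TFB1M came last at 4.75 and 4.30 FPKM, the one pair of neighbours whose ranges overlapped. After rhCYGB the order was SLIRP, LRPPRC, SUPV3L1, POLRMT, TFB2M, PNPT1, TFAM, MTPAP, POLG and TFB1M, and only TFAM and MTPAP, at 10.3 and 9.44 FPKM, overlapped as neighbours. SUPV3L1 thus went from below TFB2M to above it, and POLRMT from below TFAM to above it.

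The sum of the 10 genes went from 955 ± 10.2 to 1136 ± 23.1 CPM (SD, n = 3), and its direction depended on the scale. Without scaling factors the sums were 1011 and 1073 CPM, and in FPKM they fell from 315 to 293. Each of these differences had an exact two-sided permutation p of 0.1, the smallest that 3 against 3 can give.

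Ratios of 2 genes within a library need no scaling between libraries. They were taken for genes whose proteins work together, are paralogs or act on the same DNA or RNA. The pairs were chosen after the values were seen. SUPV3L1 and PNPT1, the helicase and nuclease of one complex, had nearly equal counts in untreated cells, with log2 ratios of 0.03, -0.02 and -0.07. After rhCYGB the ratios were 1.17, 1.17 and 1.18, so the gap between groups was many times the spread within either. Per length, SUPV3L1 stood at 1.80 ± 0.07 times PNPT1 and then at 4.12 ± 0.02 times (SD, n = 3).

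LRPPRC to SLIRP, the pair that binds mRNA, had log2 count ratios of 3.18, 3.08 and 3.19 in untreated cells and 3.83, 3.54 and 3.93 after rhCYGB. Per length LRPPRC stood at 0.509 ± 0.021 times SLIRP and then at 0.785 ± 0.106 times. POLRMT to TFAM went from -0.52, -0.48 and -0.69 to 0.94, 0.82 and 0.81. Per length POLRMT stood at 0.910 ± 0.067 times TFAM and then at 2.44 ± 0.13 times. POLRMT to TFB2M went from 0.41 ± 0.05 to 1.85 ± 0.10 (SD, n = 3), POLRMT to POLG from 0.33 ± 0.04 to 1.66 ± 0.08, and MTPAP to PNPT1 from -1.11 ± 0.20 to -0.08 ± 0.06. TFB2M to its paralog TFB1M went down, from 1.90 ± 0.05 to 1.56 ± 0.13. The groups did not overlap in any of these pairs, but the pairs were chosen with the differences in view, so the ratios are a description and no test of them is given.

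**Figure D3:**
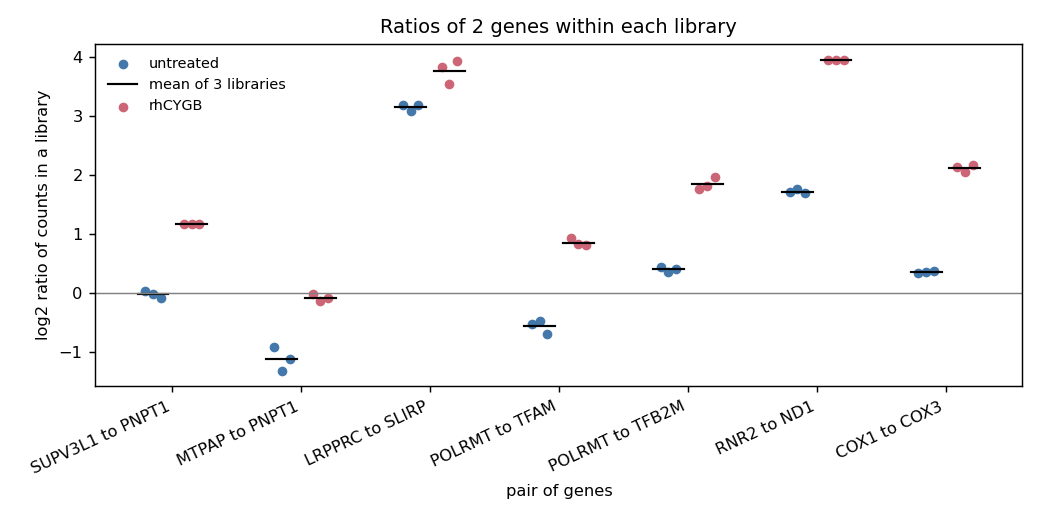
Log2 ratio of the counts of 2 genes in each library, untreated in blue and rhCYGB in red, with a line at each mean of 3 libraries. The groups are separate for all 7 pairs shown, and SUPV3L1 to PNPT1 moves from near 0 to near 1.17.

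Transcripts were read from the deposited transcript counts, in which TFB2M, POLRMT, LRPPRC, MTPAP and PNPT1 have 1 transcript each. Of TFAM, variant 1 held 87.6%, 86.8% and 81.8% of counts in untreated libraries and 77.4%, 74.7% and 91.4% in rhCYGB libraries (exact permutation p = 0.5, two-sided). The non-coding variant 3 of TFAM held 0 counts in the untreated libraries and 337, 414 and 141 in the rhCYGB libraries, or 5.95% to 20.04% of the gene. This variant was named after its values were seen, and how reads were divided among the variants was not tested. For TFB1M, variant 1 held 39.9% to 80.0% of counts in untreated libraries and 47.3% to 66.2% in rhCYGB libraries, and for POLG variant 2 held 40.2% to 84.3% and 68.3% to 79.5% (exact permutation p = 0.7 and p = 0.5, two-sided). SLIRP and SUPV3L1 were mostly variant 1, at 96.8% and 88.4% of counts in untreated cells and 96.0% and 83.5% after rhCYGB.

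The 10 genes lie on 7 chromosomes in the deposited table, which names no build. Their positions there are not those of GRCh38, except for the start site of POLRMT. TFAM is at chr10:60144903-60158990, TFB2M at chr1:246703863-246729563, TFB1M at chr6:155551005-155635618 and POLRMT at chr19:617221-633537. POLG is at chr15:89859536-89878055, SLIRP at chr14:78174414-78183941 and LRPPRC at chr2:44113363-44223128. PNPT1, at chr2:55861196-55920979, shares its chromosome with LRPPRC, and MTPAP, at chr10:30598730-30638267, and SUPV3L1, at chr10:70939990-70968849, share theirs with TFAM. Values are for whole genes, exons of all listed transcripts together.

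The RNA these factors make and turn over was read from the 37 genes of mitochondrial DNA, 13 mRNAs, 2 rRNAs and 22 tRNAs. They took 7.81%, 7.42% and 7.85% of the counts in untreated libraries and 7.13%, 6.74% and 6.995% in rhCYGB libraries (exact two-sided permutation p = 0.1, the smallest possible). Within these counts the rRNAs went from 16.4% ± 0.410 to 37.1% ± 0.307 and the mRNAs from 83.2% ± 0.402 to 62.7% ± 0.310 (SD, n = 3), again with no overlap. As a share of FPKM in place of counts, the 37 genes went from 16.3% ± 0.585 to 12.4% ± 0.398.

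Of the 13 mRNAs 10 were called lower, 7 of them by 2-fold or more, and 3 higher, beside 38.6%, 14.7% and 39.0% of all genes, and their median log2 change was -1.02, beside 0.00. CYTB, of complex III, had the largest fall at -1.63 and COX3, of complex IV, was next at -1.59 (SE 0.04 and 0.03, adjusted p = 6.61e-15 and 6.09e-16 by edgeR). COX3 was at 11380, 10900 and 11490 CPM untreated and at 3811, 3755 and 3676 CPM with rhCYGB. ND4, ND4L and COX1 were higher by 0.48, 0.24 and 0.17 on the log2 scale, and with total counts only ND4 was still called, which gave 10 lower and 1 higher, beside 45.7% and 31.8% of all genes. ND6, the mRNA encoded on the light strand, was at -0.62 and so inside the range of the mRNAs of the other strand.

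RNR1 and RNR2, the small and large mitochondrial rRNAs, rose by 1.04 and 1.21 on the log2 scale (SE 0.04 and 0.03, adjusted p = 7.31e-13 and 2.82e-14 by edgeR). RNR2 was at 11360, 10980 and 11070 CPM untreated and at 27030, 24430 and 25850 CPM with rhCYGB. Nuclear copies of the RNR2 sequence could share its reads, and the 10 MTRNR2L genes held 23 to 86 counts together per library. Within a library, the log2 ratio of RNR2 to ND1 went from 1.72 ± 0.04 to 3.95 ± 0.00124 and that of COX1 to COX3 from 0.36 ± 0.02 to 2.12 ± 0.06. The libraries were made with an mRNA kit, so the amount of a mitochondrial RNA and the share of it with a poly(A) tail, which MTPAP and LRPPRC set, cannot be told apart.

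**Figure D4:**
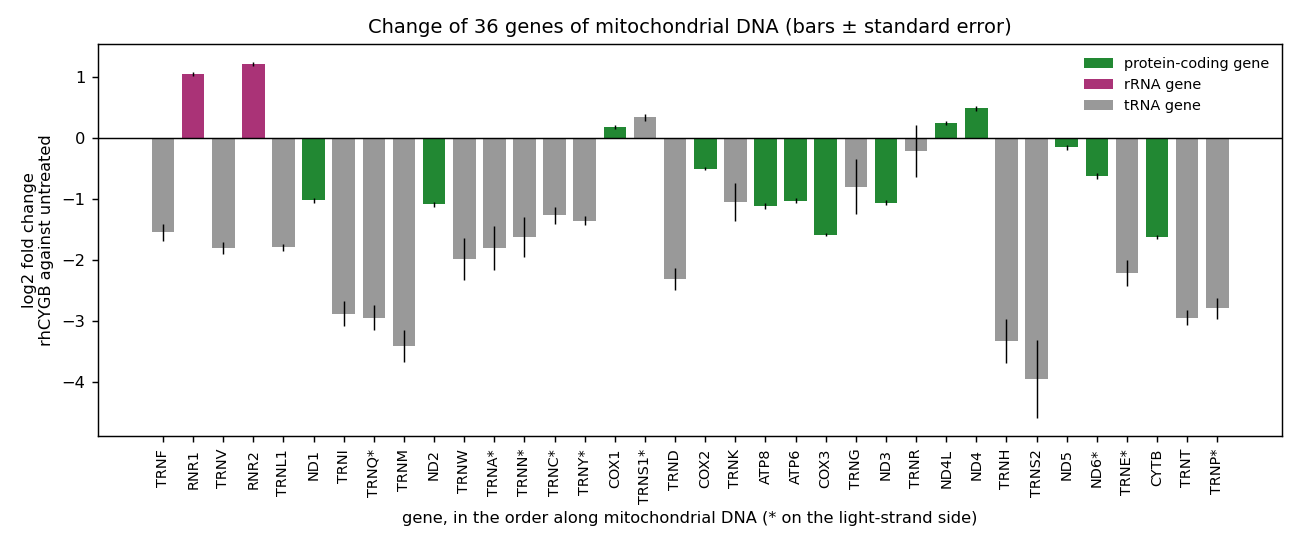
Log2 fold change, rhCYGB against untreated, of the 36 tested genes in their order along mitochondrial DNA, with standard errors, by kind of gene, and with an asterisk for genes encoded on the light strand. Both rRNA genes rise above 1 while most mRNA and tRNA genes lie below 0, and neighbours such as COX1 (0.17) and COX2 (-0.51) differ.

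Other nuclear genes of the same pathway were read from 5 lists, whose counts of calls are to be read beside the 38.6% of all genes called lower and the 39.0% called higher. Of 8 genes for elongation, termination and regulation of transcription, 4 were lower and 2 higher (median -0.22). With total counts 6 were lower and 2 higher, beside 45.7% and 31.8% of all genes. TEFM, the elongation factor that keeps POLRMT on its template, was at -0.79 (SE 0.12), against the rise of POLRMT. MTERF1 and MTERF2, DNA-binding proteins of the termination factor family, were at -1.11 and -1.85, and MTERF4 was at -0.42. LONP1, the protease that degrades unbound TFAM protein, was at 1.05 (SE 0.04, adjusted p = 7.16e-12 by edgeR), and MTERF3 was at 0.44. TFAM protein was not measured, and a link between LONP1 and the lower TFAM transcript was not tested.

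Of 24 genes for cleavage of precursors and RNA modification, 14 were lower, 5 higher and 5 not called, with a median of -0.26, beside 38.6% lower and 39.0% higher over all genes. With total counts 18 were lower and 4 higher, beside 45.7% and 31.8%. The lowest were NSUN3 at -1.55 and TRMT61B at -1.12, both methyltransferases for tRNA, with RCC1L at -1.17 and PRORP, the nuclease subunit of mitochondrial RNase P, at -0.86. NSUN4, NGRN, RPUSD4 and TRMT5 were higher, at 0.83, 0.72, 0.53 and 0.37.

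Of 16 genes for RNA granules, stability and decay, 6 were lower, 5 higher and 5 not called, with a median of -0.06, near the 38.6% and 39.0% over all genes. Here the scale mattered, since total counts gave 11 lower and 1 higher, beside 45.7% and 31.8% of all genes. FASTKD1, FASTKD3, FASTKD5 and FASTK, of the FASTK family of mitochondrial RNA-binding proteins, were at -1.55, -1.28, -1.10 and -1.03. FASTKD2 and TBRG4, of the same family, were not called, at -0.09 and 0.004. The higher ones named by the rule were PTCD1 at 0.55, whose groups overlapped, LACTB2 at 0.25, DHX30 at 0.23 and PDE12, which trims poly(A) tails made by MTPAP, at 0.23.

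The list of 19 genes for replication and upkeep of mitochondrial DNA includes the partners of POLG. Of these 19, 10 were lower, 4 higher and 5 not called (median -0.17), again beside 38.6% and 39.0% over all genes. With total counts 13 were lower and 4 higher, beside 45.7% and 31.8%. Of the partners of POLG, POLG2 and TWNK were not called, at -0.13 and 0.09, and SSBP1 was called lower at -0.14. SLC25A33, a carrier of pyrimidine nucleotides, was at 1.62, TOP1MT, the mitochondrial topoisomerase, at 1.02, LIG3, the DNA ligase, at 0.98 and SLC25A36 at 0.41. The primase PRIMPOL and the nucleases ENDOG, DNA2 and MGME1 were at -0.71, -0.65, -0.62 and -0.60. Of 10 nuclear regulators of mitochondrial biogenesis, PPARGC1A had too few counts to test, 8 were higher and 1 was lower (median 0.61), beside 39.0% and 38.6% over all genes. TFEB, a regulator of lysosomal genes, was at 2.86 and MYC, a regulator of growth, at 2.21. GABPB1 and PPARGC1B were at 1.38 and 0.87, and GABPA, the DNA-binding partner of GABPB1, was at -0.34 (SE 0.05). NRF1, whose core was searched for in the promoters, was at 0.17 (SE 0.07, adjusted p = 0.032 by edgeR). In FPKM NRF1 was at 4.52 untreated and 4.57 with rhCYGB, and its groups overlapped. With total counts 7 of the regulators were higher and 1 lower, beside 31.8% and 45.7% of all genes.

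**Figure D5:**
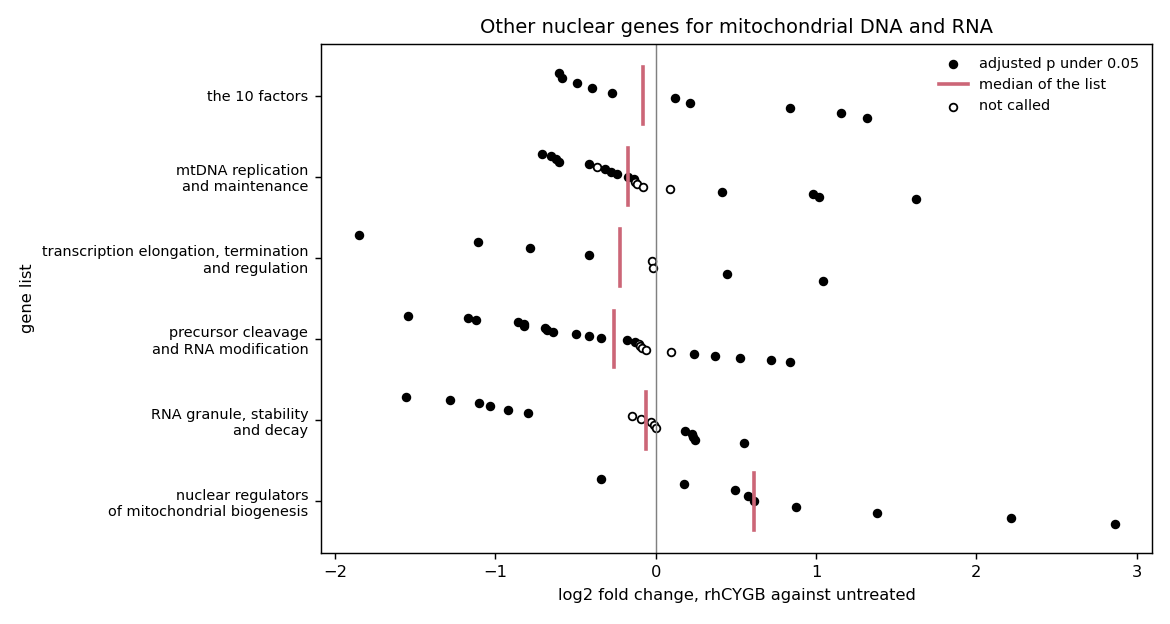
Log2 fold change, rhCYGB against untreated, of each tested gene of the 10 factors and of the 5 other lists, filled where the adjusted p was under 0.05, with the median of each list as a red line. The medians run from -0.26 for cleavage and modification to 0.61 for the regulators, and each list has genes on both sides of 0.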

How the data were processed

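RNA-seq libraries of MIA PaCa-2 cells, 3 untreated and 3 with 4 µM rhCYGB for 48 h, were grouped by their labels. The authors used a stranded mRNA kit with inserts of 200 to 400 bp. Per the submitters' processing notes, FastQC 0.11.7, HISAT2 2.1.0 and StringTie 2.1.3b were used. The notes list the mouse build mm10, while the genes and positions are human and the table names no build. The authors deposited whole-number read counts, not normalized, per gene and per transcript, and FPKM values scaled to length and depth. Their 6 TPM columns per table were not used.

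Counts were tested with edgeR 4.0.16 (R 4.3.3) after filterByExpr, with TMM factors, by glmQLFit and glmQLFTest with no block for the replicate number, all 6 libraries in one fit, and Benjamini-Hochberg adjustment over 14728 genes. All tests were two-sided. Of the 35993 genes, 15205 had 0 counts in every library. Single values were compared by an exact permutation test. The script was tested on simulated counts in which few genes changed, each by more than 2-fold. That does not test smaller changes or data in which most genes are called, as here. Counting floors cover counting error only.

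The 10 genes and the lists were chosen with earlier results of these data known. The text names all 10 genes, genes of mitochondrial DNA, and from each other list up to 4 called genes at each end of the log2 change with a mean of at least 1 CPM. FANCI and TIAM2 are named for their overlap with members. POLG2, TWNK and SSBP1 are named as partners of POLG, and FASTKD2 and TBRG4 as further genes of the FASTK family. Strands of the 37 mitochondrial genes came from GENCODE 29, whose ends equalled those deposited.

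The alternatives were DESeq2's size factors and Wald test (1.42.0), upper-quartile factors, total counts, library sizes without mitochondrial genes, limma 3.58.1 on log2(FPKM + 0.1) and on log2(FPKM + 1), all genes unfiltered, at least 10 counts in every library, transcript sums, the replicate block and leaving out each library. Ratios within a library, and changes relative to the median gene, were chosen after seeing the data.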

Additional observations from a re-analysis of the deposited data

How the results depend on the processing

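Of the repeats of the log2 changes of the 10 genes under 17 alternatives, 152 gave the same call and direction, 14 lost the call and 4, all of PNPT1, changed sign. Of the repeats for genes of mitochondrial DNA, 592 gave the same call, 9 lost it and 4 gained it, and none changed sign. PNPT1 was at -0.0219 with upper-quartile factors, -0.0456 with total counts, -0.0400 on log2(FPKM + 1) and -0.0428 on log2(FPKM + 0.1). With upper-quartile factors, total counts or either FPKM fit, 3 of the 10 genes were called higher in place of 5. The list for granules, stability and decay then had 11 lower and 1 higher. Over all genes, 44.7% were called lower and 33% higher with upper-quartile factors, and 45.7% and 31.8% with total counts. On log2(FPKM + 1) these shares were 44.4% and 31.1%, and on log2(FPKM + 0.1) 44.6% and 31.1%. With total counts or either FPKM fit 1 mitochondrial mRNA was called higher in place of 3, and in both FPKM fits 0 tRNAs were called higher. These settings move the median of all genes, to -0.17 with total counts. Relative to that median PNPT1 was at 0.12 and LRPPRC at 0.22 under total counts, as in the reported fit. Scaling factors shift all genes alike, so this match was fixed in advance and is no support for the 2 rises. Relative to the median on log2(FPKM + 1), PNPT1 was at 0.0458 and LRPPRC at 0.137. On log2(FPKM + 0.1) they were at 0.109 and 0.203. The difference in the sum of the 10 genes was 181.5 CPM, 61.9 CPM without factors and -21.5 in FPKM. The share on mitochondrial genes differed by -0.735 percentage points in counts and by -3.89 in FPKM. The difference in the share of TFB1M variant 1, -5.21 points, was 5.155 without untreated replicate 2 and -14.9 without untreated replicate 3. Same-numbered libraries did not deviate together (correlations of -0.048, 0.0072 and 0.0055), so the numbers were not taken as pairs, and not every library correlated best with its own number. The fit with the replicate block called 5 of the 10 genes lower and 5 higher, and 5635 lower and 5716 higher of all genes, against 5685 and 5742 without it. Depth limits the tRNAs with few counts more than any of the 10 genes. Except for the settings that rescale the libraries, the cause of these shifts was not tested.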

Other observations

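The genes of mitochondrial tRNAs, which are cut out of the precursors that POLRMT makes, mostly had lower values after rhCYGB. Of 21 tested, 18 were called lower, all by 2-fold or more, beside 38.6% and 14.7% of all genes, 1 was called higher and 2, TRNG and TRNR, were not called, with a median log2 change of -1.81 (edgeR's quasi-likelihood test). They held 0.404% ± 0.013 of the counts on mitochondrial DNA in untreated cells and 0.249% ± 0.008 after rhCYGB (SD, n = 3). TRNL1, which lies between RNR2 and ND1, was at 46.0, 45.8 and 49.1 CPM untreated and at 14.0, 13.1 and 13.5 CPM with rhCYGB. Its log2 ratio to RNR2 went from -7.89 ± 0.07 to -10.9 ± 0.03 and that to ND1 from -6.17 ± 0.06 to -6.94 ± 0.03. TRNS1, the 1 tRNA called higher (log2 change 0.33), lies on the light strand beside the end of COX1, and its log2 ratio to COX1 was -7.18 ± 0.04 and -7.03 ± 0.09. The tRNA genes are 59 to 75 bases long, shorter than the selected inserts of 200 to 400 bp. Their counts therefore cannot be read as levels of free tRNAs, which were not measured. Whether the light-strand tRNA counts hold reads of the opposite strand was not tested.

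TRNS2 held 25, 22 and 29 counts in untreated libraries and 1, 0 and 3 in rhCYGB libraries. TRNL2, which was not tested, held 6, 6 and 4 and then 3, 0 and 1. TRNM held 143 to 165 counts and then 8 to 17.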
